A study of Ipomoea batatas with 9 samples.

Results

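Pectin-degrading enzymes of the sweetpotato storage root were followed across 3 storage treatments. The members were the contigs of the deposited expression table whose product description named pectinesterase, pectate lyase or polygalacturonase, 115 of 110110 contigs in all. They comprised 61 pectinesterases, 24 pectate lyases and 30 polygalacturonases. The rule itself uses no measured value, although the enzymes were picked with earlier results of these data known, and no member's description contained the word inhibitor. The roots, of the cultivar Xushu 18 (Ipomoea batatas), had been kept at 4 °C, kept at 14 °C, or not stored, with 85% relative humidity in both stores. For each treatment 3 libraries were made, every one from 7 pooled roots, and means are given with the SD over these 3 libraries (n = 3). The comparisons address the response of stored roots to cold. How long the sequenced roots had been in store is not stated in the labels, so temperature and storage time cannot be told apart against the roots not stored.

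Pectin is the galacturonic acid-rich polysaccharide that glues neighbouring plant cells together and controls how porous and how stiff the primary wall is. Pectinesterases remove its methyl groups, which either lets calcium cross-link the chains or opens them to attack. Polygalacturonases then cut the demethylated chains by adding water, and pectate lyases cut them by elimination. In fruits, organ abscission, pollen tube growth and tissue infected by soft-rot microbes, these enzymes are known for softening or separating tissue.

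The contigs come from a transcript assembly, and sweetpotato is polyploid. Contigs sharing a symbol may therefore be gene copies or fragments of the same gene, and the counting may have divided the reads of similar copies among them. Levels are given as CPM (counts per 1000000 counts, scaled between libraries), and as CPM per kb of contig wherever contigs are compared with each other. Libraries held estimated counts of 67.6 to 95.4 times 1000000, and a count of 0 allowed a level of up to 0.0318 to 0.0426 CPM, which is 3 counts in a library and covers counting error alone. Differences were tested with edgeR over 94802 contigs, and a contig was called higher or lower at an adjusted p of 0.05.

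The labelled tissue was checked against sporamin, the main storage protein of this root. The 9 contigs with a sporamin symbol summed to 23.6 to 232 CPM at 4 °C, against 26041 to 34894 CPM at 14 °C and 69617 to 109065 CPM in roots not stored, so this root marker was far lower and uneven between libraries at 4 °C. Histones, as markers of dividing cells, summed to 2695 to 3077 CPM over 106 contigs at 4 °C, 843 to 1153 CPM at 14 °C and 1040.0 to 1640 CPM in roots not stored. Markers of secondary-walled xylem, 31 contigs, summed to 219 to 244 CPM at 4 °C, against 96.8 to 106 CPM at 14 °C and 111 to 150 CPM in roots not stored. Green tissue markers, 116 contigs, summed to 174 to 203 CPM at 4 °C, against 576 to 596 CPM at 14 °C and 1669 to 2443 CPM in roots not stored. The search for microbial markers matched 2 contigs, both described as lanosterol synthase, with the symbols CPQ and OSCPNX1. Neither description nor symbol names a microbe, so the search gave no measure of microbial RNA. Both were detected in every library, at 0.723 to 1.18 CPM in sum at 4 °C, 0.783 to 1.71 CPM at 14 °C and 1.44 to 1.78 CPM in roots not stored. Of the green tissue contigs, 4, 4 and 32 were at 0 in the libraries at 4 °C, against 2 to 8 at 14 °C and 0 to 2 in roots not stored. These shifts in marker level ran alongside the results below, and their part in them was not tested. In pooled tissue, fewer cells of a type and less RNA per cell cannot be told apart.

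Pectinesterases were the most abundant of the 3 enzymes and more of their contigs were called higher than lower between the stores. Of the 56 pectinesterase contigs tested for 4 °C against 14 °C, 27 were higher, 7 were lower and 22 were not called. Among all contigs tested, 23.8% were called higher and 24% lower in that comparison, while 48.2% of the pectinesterases were higher and 12.5% lower. The median log2 fold change was 0.77 for these pectinesterases and -0.08 for all contigs. The filter on low counts bears on these values, because 11 of the 56 had passed it by their level at 4 °C alone and all 11 were called higher. Of the other 45, 16 were higher and 7 lower. The libraries of the stores did not overlap in 39 of the 56, 28 with 4 °C above and 11 below, where 60.4% of all contigs did not overlap. Among the 28 pectinesterases that averaged at least 2 CPM over the 9 libraries, 13 were higher and 4 lower. This average includes the 4 °C libraries, so the count is not free of selection by the level there. Some of the 13 reached it through 4 °C alone, among them comp103876_c5 (PECS-2.1), comp80712_c2 and comp80713_c4 (PME17). Each of these had a mean of 0.441 CPM or less in either other treatment.

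Against roots not stored, the pectinesterases at 4 °C were called in both directions. At 4 °C 20 of 56 were higher and 17 lower, where 26.0% of all contigs were called higher and 26.6% lower. Of the 45 that did not depend on their level at 4 °C to be tested, 10 were higher and 17 lower. In 21 of the 56 every library at 4 °C lay above the roots not stored, where 30.1% of all contigs did. In roots at 14 °C 3 of 56 pectinesterases were higher and 22 lower than in roots not stored, where 15.1% of all contigs were called higher and 15.7% lower, and the median log2 fold change was -0.76. Among the 11 that had passed the filter by their level at 4 °C alone, 1 was higher and 3 lower at 14 °C. Among the other 45, 2 were higher and 19 lower. Of the 22 lower, 3 rested on few counts, and comp104422_c1 lay at or under the counting floor in both groups. Scaling by library totals alone moved the median of all contigs in this comparison to 0.27 from 0.02 and put 67.9% of all calls on the higher side, against 49.0% with the scaling used here. Under that scaling 4 pectinesterases were called higher and 17 lower. The libraries did not overlap in 29 of the 56, 27 of them with 14 °C below, where 44.6% of all contigs did not overlap. At least 2-fold rises were called in 3 pectinesterases and falls in 14, where 9.15% of all contigs rose and 9.95% fell by that much. The roots not stored are shared by both of these comparisons.

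**Figure D1:**
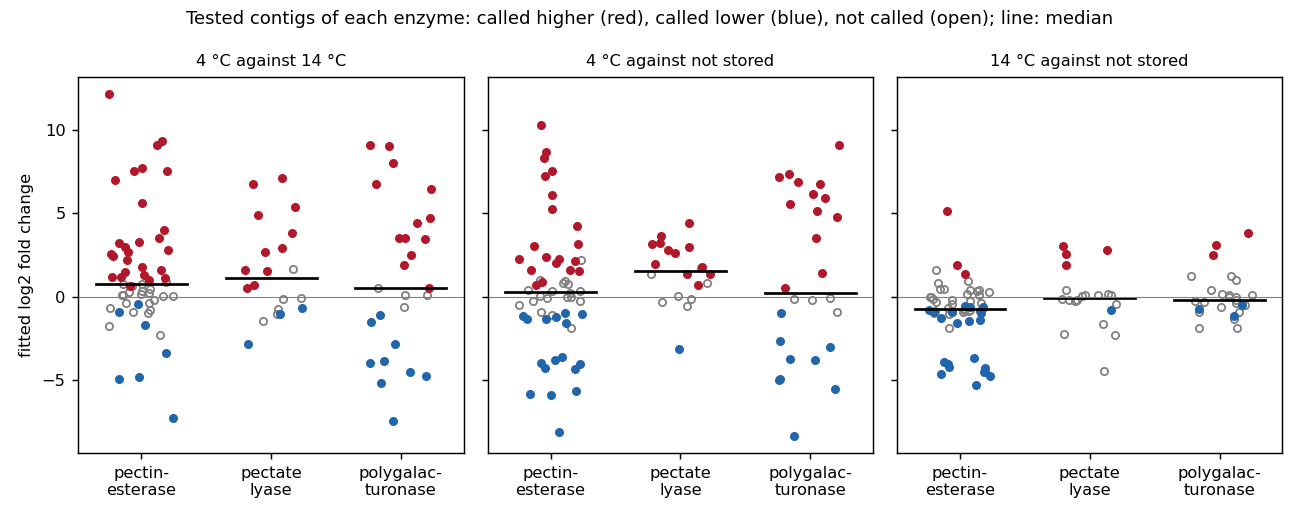
Fitted log2 fold changes of the tested contigs of each enzyme in the 3 comparisons, with contigs called higher in red, called lower in blue, not called as open circles, and the median as a line. Pectinesterases lay mostly above 0 for 4 °C against 14 °C and mostly below 0 for 14 °C against roots not stored, and polygalacturonases spread widely in both directions at 4 °C. Values far from 0 include contigs with no counts in a group, whose fitted change is no measured fold.

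A single contig carried the largest share of the pectinesterase signal in every treatment, and most of it in both stores. comp101357_c1, without a gene symbol, had 1356, 1116 and 1452 CPM in the 3 libraries at 4 °C, 193, 230 and 205 CPM at 14 °C and 354, 321 and 281 CPM in roots not stored. All libraries at 4 °C lay above all others, and the libraries at 14 °C lay below those of roots not stored. The log2 fold change was 2.65 ± 0.14 for 4 °C against 14 °C (SE, adjusted p = 3.3e-08) and 2.04 ± 0.14 for 4 °C against roots not stored (SE, adjusted p = 1.8e-07). For 14 °C against roots not stored it was -0.61 ± 0.13 (SE, adjusted p = 0.005), which was not called under library totals alone (adjusted p = 0.071). Per kb, this contig made up 79.5% of the summed pectinesterase level at 4 °C, against 60.9% at 14 °C and 47.0% in roots not stored.

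Without it, the other 60 pectinesterase contigs summed to 275 ± 57.1 CPM per kb at 4 °C, against 110 ± 4.42 at 14 °C and 294 ± 73.7 in roots not stored. The sums at 4 °C and in roots not stored overlapped, and all 3 sums at 14 °C lay below them. The level in roots not stored came largely from the MPE3 contigs described below, and part of the level at 4 °C from PME17. Leaving out these contigs too, the remaining 51 summed to 148 ± 7.91 CPM per kb at 4 °C, against 88.1 ± 2.58 at 14 °C and 119 ± 5.86 in roots not stored, with no overlap between any 2 groups. MPE3 and PME17 were left out on account of their values in these data, so this order depends on that choice. MPE3 alone summed to 60.2 ± 6.74 CPM per kb at 4 °C, against 21.7 ± 1.9 at 14 °C and 175 ± 68.9 in roots not stored. An exact permutation test of 3 libraries against 3 cannot go below p = 0.1, so no p is given for these sums.

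**Figure D2:**
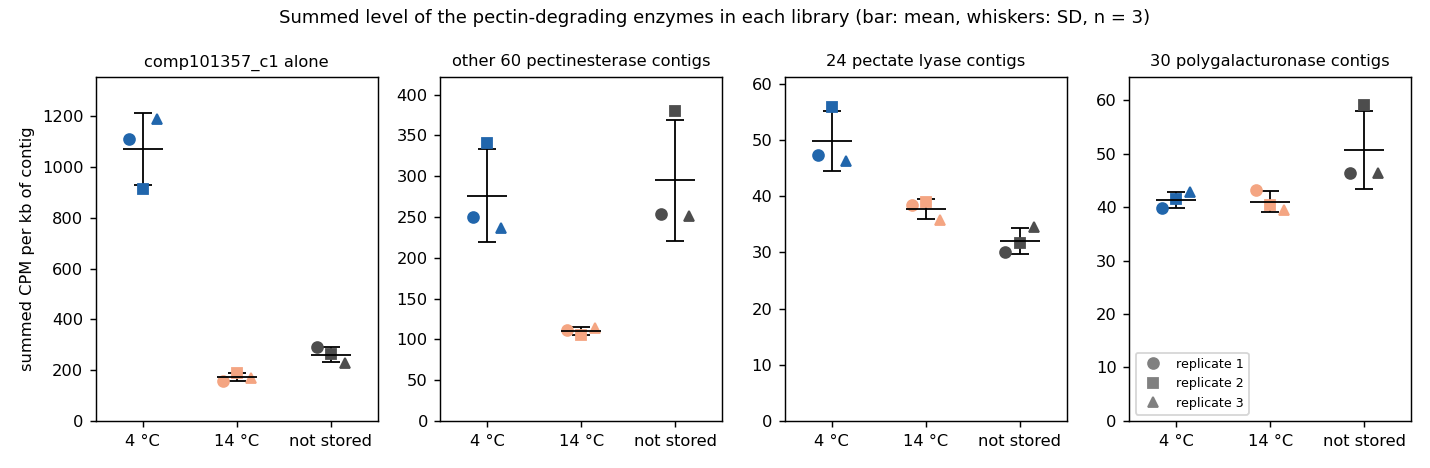
Summed CPM per kb of contig in each library for comp101357_c1, the other 60 pectinesterases, the 24 pectate lyases and the 30 polygalacturonases, with the mean (bar) and SD (whiskers, n = 3) of each treatment. comp101357_c1 stood highest at 4 °C, the other pectinesterases were lowest at 14 °C, the pectate lyases were highest at 4 °C, and the polygalacturonases at 4 °C and 14 °C overlapped.

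The annotation of comp101357_c1 leaves its function uncertain. Many plant pectinesterases are made with an amino-terminal pro region that resembles the free proteins known to inhibit pectinesterase, and annotation by similarity can give both kinds of protein the same terms. Of the 61 contigs, 52 carried the Gene Ontology term aspartyl esterase activity, which belongs to the catalytic part, and 47 carried enzyme inhibitor activity. comp101357_c1 was among 5 contigs that carried enzyme inhibitor activity and pectinesterase activity without the catalytic term. Whether these 5 encode an enzyme or an inhibitor cannot be told apart from the table. Among the 48 tested contigs with the catalytic term, 25 were higher and 4 lower for 4 °C against 14 °C, 18 higher and 14 lower for 4 °C against roots not stored, and 2 higher and 20 lower for 14 °C against roots not stored. As shares of the 48 these were 52.1% and 8.33%, 37.5% and 29.2%, and 4.17% and 41.7%, where all contigs had 23.8% and 24%, 26.0% and 26.6%, and 15.1% and 15.7%. The share lower at 4 °C against roots not stored was thus near that of all contigs. The 48 include all of the 11 pectinesterases that had passed the filter by their level at 4 °C alone, except comp74314_c1. Of those 11, all were called higher for 4 °C against 14 °C and 10 against roots not stored. The shares higher at 4 °C thus include contigs tested because they were high there.

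The other contigs of this inhibitor-like kind went in both directions. comp25161_c1 had 0, 0.0374 and 0 CPM at 4 °C, against 1.47, 1.87 and 3.47 CPM at 14 °C and 4.42, 4.33 and 3.67 CPM in roots not stored. comp43213_c1 had 0.227, 0 and 0 CPM at 4 °C, against 2.05, 1.71 and 2.41 CPM at 14 °C and 4.16, 4.15 and 4.5 CPM in roots not stored. comp71897_c2 had 0.142, 0.274 and 0.216 CPM at 4 °C, against 2.62, 1.78 and 2.37 CPM at 14 °C and 5.15, 3.96 and 3.88 CPM in roots not stored. All 3 had 0.274 CPM or less in every library at 4 °C, below every other library, and all 3 fell against both other treatments. The log2 fold change of comp71897_c2 was -3.40 ± 0.29 for 4 °C against 14 °C (SE, adjusted p = 1.3e-06). comp25161_c1 was 167-fold lower at 4 °C than at 14 °C, with a 95% counting interval of 56.7 to 810 (edgeR adjusted p = 2e-06). That ratio rests on 3 counts in replicate 2 at 4 °C, without which the contig had no count there. comp74314_c1, chosen after its values were seen, did the opposite, with 1.16, 0.523 and 0.825 CPM at 4 °C, against 0.0212, 0 and 0.0275 CPM at 14 °C and 0.0118, 0 and 0 CPM in roots not stored. It was 52.8-fold higher at 4 °C than at 14 °C, with a 95% counting interval of 20.3 to 196.

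Among contigs with the catalytic term that reached 2 CPM at 4 °C, the largest fitted rises there were those of PME17 and PECS-2.1. PME17 is in Arabidopsis a pectinesterase induced by the grey mould Botrytis. comp80712_c2 (PME17) had 64.9, 127 and 69.4 CPM at 4 °C, against 0.106, 0.179 and 0.193 CPM at 14 °C and 0.106, 0.348 and 0.194 CPM in roots not stored. It was thus barely detected outside the 4 °C store, where every library was high and replicate 2 highest. Its log2 fold change was 9.10 ± 0.44 against 14 °C (SE, adjusted p = 7.4e-08) and 8.65 ± 0.43 against roots not stored (SE, adjusted p = 7e-08). The second PME17 contig, comp80713_c4, was uneven at 4 °C, with 17, 71.6 and 0.888 CPM, against 0.148, 0.268 and 0.275 CPM at 14 °C and 0.388, 0.612 and 0.323 CPM in roots not stored. The groups did not overlap, but replicate 3 at 4 °C was close to the roots not stored. Its log2 fold change against 14 °C was 7.02 ± 1.41 (SE, adjusted p = 0.0031), and 5.29 without replicate 2 at 4 °C. Against roots not stored it was 6.07 ± 1.32 (SE, adjusted p = 0.0042), and 4.29 without that library. limma-voom did not call it against 14 °C (adjusted p = 0.073) or against roots not stored (adjusted p = 0.068), and the second of these calls was also lost at adjusted p = 0.05 without replicate 3 of the roots not stored.

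PECS-2.1 is the symbol of a pectinesterase of sweet orange fruit. comp103876_c5 (PECS-2.1) had 5.64, 9.79 and 5.44 CPM at 4 °C, no count in the 3 libraries at 14 °C, and a count in 1 library of roots not stored (0.012 CPM). The reads of this contig thus came almost entirely from 4 °C, at least 196-fold higher than at 14 °C by the floor of 3 counts per library (edgeR adjusted p = 2.4e-07). A shorter contig with the same symbol but no product description, comp85174_c8 of 273 bases, was not tested, and stood at 0.213, 0.511 and 0.0508 CPM at 4 °C, with none of its reads at 14 °C. comp80712_c2 and comp103876_c5, like comp74314_c1 above, had passed the filter by their level at 4 °C alone.

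Some pectinesterases of intermediate abundance rose at 4 °C against both other treatments. PME61 (comp40032_c1) had 52.1, 52.9 and 48.2 CPM at 4 °C, against 9.43, 6.92 and 9.95 CPM at 14 °C and 20.1, 14.3 and 17.1 CPM in roots not stored. PME51 (comp53413_c1) had 25.3, 32.5 and 24.3 CPM at 4 °C, against 10.8, 10.1 and 8.49 CPM at 14 °C and 13.8, 20.8 and 16.3 CPM in roots not stored. In both, every library at 4 °C was above and every library at 14 °C below the roots not stored, with log2 fold changes for 4 °C against 14 °C of 2.54 ± 0.17 for PME61 (SE, adjusted p = 1.9e-07) and 1.48 ± 0.18 for PME51 (SE, adjusted p = 2.6e-05). A short contig of PME34, which in Arabidopsis acts in guard cells and heat tolerance, had 3.32, 3.36 and 3.77 CPM at 4 °C, against 0.329, 0.134 and 0.193 CPM at 14 °C and 0.482, 0.228 and 0.465 CPM in roots not stored (comp79224_c8). The longer PME34 contig, comp71713_c1 of 1670 bases, had 3.02, 4.22 and 2.45 CPM at 4 °C, against 6.29, 3.35 and 3.01 CPM at 14 °C and 6.58, 8.97 and 8.71 CPM in roots not stored. It overlapped between the stores and was lower at 4 °C than in roots not stored (log2 -1.32 ± 0.29, SE, adjusted p = 0.0024). All 3 PME28 contigs among the members and both contigs of PPE1, named after a petunia pollen pectinesterase, were called higher at 4 °C than at 14 °C, at 1.91 CPM or less in every library, but each had passed the filter by its level at 4 °C alone. Outside the members, the more abundant PME28 contig comp65674_c8 was not called between the stores (log2 0.10 ± 0.17, SE, adjusted p = 0.66). It was lower at 4 °C than in roots not stored (log2 -0.84 ± 0.17, SE, adjusted p = 0.0012). Another such PME28 contig, comp95798_c14, was higher at 4 °C than at 14 °C (log2 0.88 ± 0.32, SE, adjusted p = 0.038). PME61, PME51, PME34, PME28 and PPE1 fell outside the rule for named contigs and were chosen after their values were seen.

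PME45 (comp100050_c2) rose in both stores. It had 4.6, 3.97 and 3.96 CPM at 4 °C, against 2.26, 2.08 and 1.84 CPM at 14 °C and 0.871, 0.828 and 0.723 CPM in roots not stored. The 3 treatments did not overlap, and the log2 fold changes were 2.37 ± 0.20 for 4 °C and 1.35 ± 0.19 for 14 °C against roots not stored (SE, adjusted p = 9.3e-07 and 0.00032).

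The clearest loss in store was that of MPE3, named after pectinesterase 3 of the common bean. All 7 MPE3 contigs were lower at 14 °C than in roots not stored, and 6 of the 7 were lower at 4 °C as well. Of these, comp67403_c5 had passed the filter by its level in roots not stored alone. The longest, comp91186_c1, had 5.41, 7.99 and 5.57 CPM at 4 °C, against 5.41, 3.46 and 3.25 CPM at 14 °C and 59.5, 111 and 61.2 CPM in roots not stored. comp48421_c3 had 2.2, 2.44 and 1.78 CPM at 4 °C, against 1.72, 1.1 and 1.91 CPM at 14 °C and 28, 49.2 and 30.7 CPM in roots not stored. Both stores thus overlapped at a low level while all roots not stored were high, replicate 2 most of all. For comp91186_c1 the log2 fold change was -3.61 ± 0.30 for 4 °C and -4.25 ± 0.31 for 14 °C against roots not stored (SE, adjusted p = 2.9e-06 and 7.7e-06). comp100131_c7 and comp48422_c6 had the same order, at 0.112 to 0.934 CPM over the 6 stored libraries and 3.34 to 19.5 CPM in roots not stored.

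One MPE3 contig parted from this pattern at 4 °C. comp41076_c1 had 49.2, 53 and 43.9 CPM at 4 °C, against 13.6, 13.6 and 15.7 CPM at 14 °C and 25.2, 35.1 and 19.1 CPM in roots not stored. It was highest at 4 °C and lowest at 14 °C with no overlap, and its log2 fold changes were 1.77 ± 0.19 for 4 °C against 14 °C (SE, adjusted p = 1.3e-05), 0.88 ± 0.19 for 4 °C against roots not stored (SE, adjusted p = 0.0019) and -0.89 ± 0.19 for 14 °C against roots not stored (SE, adjusted p = 0.0042). At 4 °C it made up 84.1% of the summed MPE3 level per kb. In roots not stored the largest share was that of comp91186_c1, at 26.4%. Replicate 2 of the roots not stored held the highest value among them in 16 of the 22 pectinesterases that were lower at 14 °C, and 19 pectinesterases were called lower when this library was left out.

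Some pectinesterases were not called or changed little between the stores, although a few of them changed against roots not stored. PME31 is in Arabidopsis a pectinesterase made without the pro region, and 4 of its 5 contigs were not called for 4 °C against 14 °C, with log2 fold changes of -0.39 to 0.63 over the 5. The most abundant of them, comp30141_c2, had 10.2, 8.82 and 9 CPM at 4 °C, against 7.81, 7.94 and 10.6 CPM at 14 °C and 7.96, 8.31 and 7.54 CPM in roots not stored, with overlap between the stores. Another PME31 contig, comp37947_c1, had 6.76, 5.6 and 5.95 CPM at 4 °C, against 6.96, 7.12 and 9.9 CPM at 14 °C and 12.4, 12.4 and 11.6 CPM in roots not stored. It was lower than in roots not stored at both 4 °C and 14 °C, at log2 -0.99 ± 0.16 and -0.60 ± 0.16 (SE, adjusted p = 0.00028 and 0.014). None of the 3 contigs of PME41, an Arabidopsis pectinesterase studied for its part in chilling tolerance, was called between the 2 stores, and all were under 1 CPM in every library, while comp55315_c3 was lower at 4 °C than in roots not stored (adjusted p = 0.047). The long PMEU1 contig, comp11203_c1, had 15.6, 13.2 and 15.9 CPM at 4 °C, against 17.4, 20.9 and 22.1 CPM at 14 °C and 15.5, 17 and 13.3 CPM in roots not stored. It was called slightly lower at 4 °C than at 14 °C (log2 -0.44 ± 0.14, SE, adjusted p = 0.024). A short PMEU1 contig, comp104422_c1, was instead called higher at 4 °C, at least 28.1-fold (edgeR adjusted p = 1.3e-05). It had 0.838, 0.735 and 1.42 CPM there and no count at 14 °C, but had passed the filter by its level at 4 °C alone. Of the other PMEU1 contigs, comp80711_c1 was not called between the stores, and comp108137_c2, not tested, had reads at 4 °C only. These contigs were chosen after their values were seen. Among the 61 contigs, 2 carried the symbol PERK9, of a receptor-like kinase, and 1 the symbol FH14, of a formin, so their description and symbol name different proteins. None of these 3 was called between the stores. The FH14 contig comp9179_c1 was one of the 3 called higher at 14 °C than in roots not stored (log2 1.92 ± 0.53, SE, adjusted p = 0.023), with 18.9, 16.5 and 6.81 CPM at 14 °C, against 1.94, 2.4 and 6.87 CPM in roots not stored, which overlapped.

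**Figure D3:**
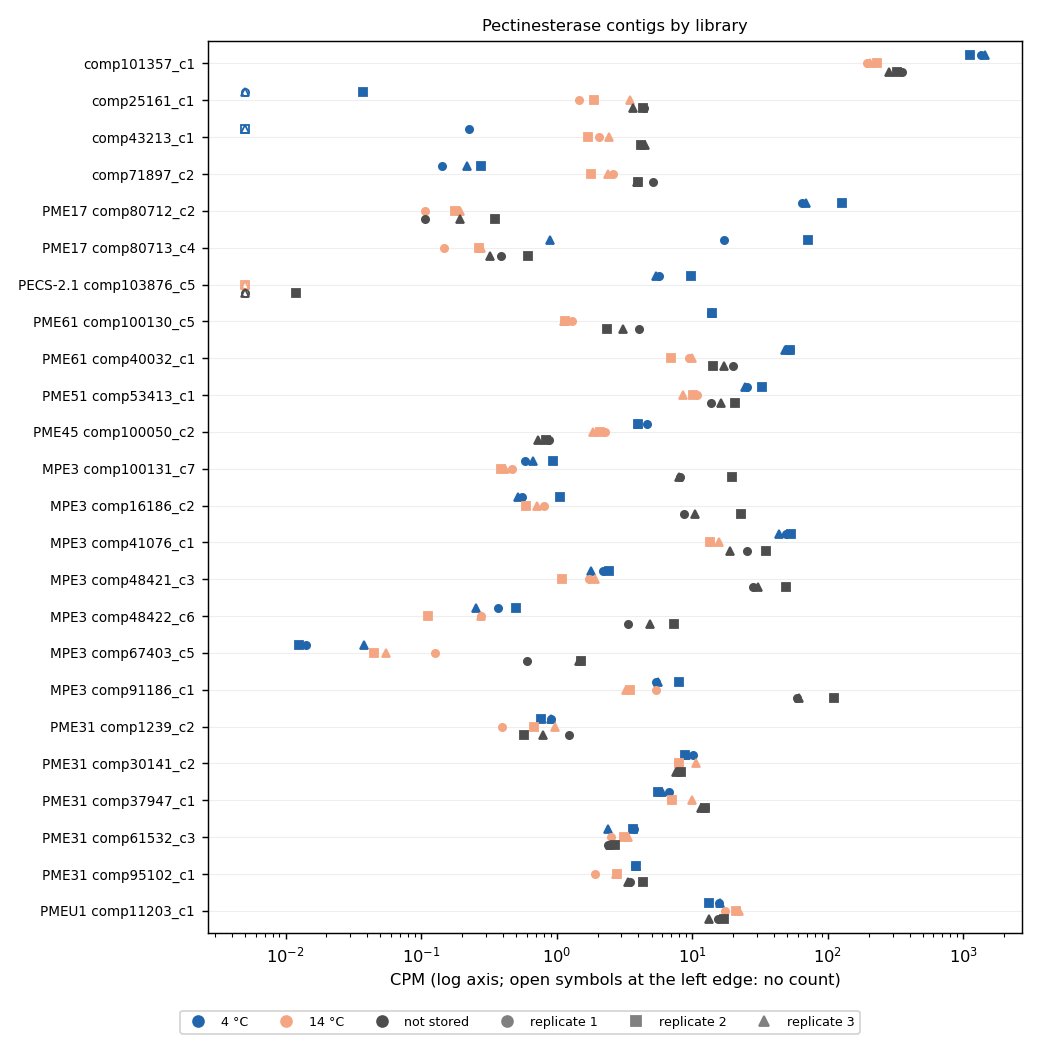
CPM of 24 pectinesterase contigs in each library, on a log axis, with 4 °C in blue, 14 °C in orange and roots not stored in grey, and open symbols at the left edge for libraries with no count. The PME17 contig comp80712_c2 and PECS-2.1 lie far right at 4 °C alone. The PME17 contig comp80713_c4 does so too, except for replicate 3 at 4 °C (0.888 CPM), which lies close to the roots not stored. In roots not stored alone, 6 of 7 MPE3 contigs lie far right, and the PME31 contig comp30141_c2 spans a narrow range.

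Pectate lyases were called in both directions at 4 °C, and the 3 most abundant did not share a direction. For 4 °C against 14 °C 11 of 20 tested contigs were higher, 3 lower and 6 not called, with a median log2 fold change of 1.10, where 23.8% of all contigs were higher and 24% lower. Against roots not stored, 12 were higher and 1 lower at 4 °C, with a median of 1.56, where 26.0% of all contigs were higher and 26.6% lower. At 14 °C 4 were higher (20%) and 1 lower than in roots not stored, with a median of -0.07. The share of all contigs was 15.1% higher and 15.7% lower there, so the share higher was near it. Of these 4 higher contigs, comp106235_c1 and comp21379_c5 had passed the filter by their level at 14 °C alone. Among the 17 tested contigs with the Gene Ontology term pectate lyase activity, 1 was higher and 1 lower at 14 °C than in roots not stored. Of the 20 tested contigs, 4 had passed the filter by their level at 4 °C alone, and all 4 were called higher there in both comparisons. Of the other 16, 7 were higher and 3 lower for 4 °C against 14 °C, and 8 higher and 1 lower for 4 °C against roots not stored. Among the 7 contigs that averaged at least 2 CPM, 3 were higher and 3 lower for 4 °C against 14 °C. Of these, comp104748_c1, called higher, reached that average through 4 °C, with a mean of 1.23 CPM or less in either other treatment. comp52871_c1, called lower, reached it through the other treatments, with a mean of 1.48 CPM at 4 °C. Per kb, all 24 contigs summed to 49.8 ± 5.32 CPM at 4 °C, against 37.7 ± 1.71 at 14 °C and 32.1 ± 2.33 in roots not stored, with no overlap between treatments.

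The pectate lyase-like symbol At3g53190, an Arabidopsis locus name, was carried by 5 contigs, and all 5 were higher at 4 °C than at 14 °C. comp104748_c1 had 14, 18.1 and 14.9 CPM at 4 °C, against 0.933, 1.3 and 1.06 CPM at 14 °C and 1.45, 1.22 and 1.03 CPM in roots not stored. Both other treatments overlapped at a low level, far below 4 °C, and the log2 fold change was 3.84 ± 0.20 against 14 °C (SE, adjusted p = 3e-08) and 3.66 ± 0.20 against roots not stored (SE, adjusted p = 3.3e-08). comp76355_c1 had 3.52, 3.16 and 2.55 CPM at 4 °C, against 0.212, 0.749 and 0.454 CPM at 14 °C and 0.165, 0.6 and 0.555 CPM in roots not stored, and it too was high at 4 °C alone. comp55876_c1 and comp7743_c1 had 1.46 to 1.57 CPM and 0.672 to 0.951 CPM at 4 °C, against 0.403 to 0.682 CPM and 0.246 to 0.289 CPM at 14 °C.

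The last contig of that symbol was also high in roots not stored. comp55878_c2 had 4.09, 5.12 and 5.04 CPM at 4 °C, against 3.4, 2.86 and 2.6 CPM at 14 °C and 4.05, 6.01 and 5.48 CPM in roots not stored. It overlapped between 4 °C and roots not stored, and its calls were 0.68 ± 0.20 for 4 °C against 14 °C and -0.81 ± 0.20 for 14 °C against roots not stored on the log2 scale (SE, adjusted p = 0.012 and 0.0085). Of the 5 calls against 14 °C, that of comp7743_c1 was lost at adjusted p = 0.05 without replicate 2 at 14 °C.

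LAT59, the symbol of a late anther pectate lyase of tomato, fell at 4 °C. comp52871_c1 (LAT59) had 1.53, 1.34 and 1.55 CPM at 4 °C, against 12.4, 11.2 and 8.3 CPM at 14 °C and 10.4, 12.5 and 16 CPM in roots not stored. The 3 libraries at 4 °C were far below the other 6, which overlapped. The log2 fold change was -2.85 ± 0.21 against 14 °C (SE, adjusted p = 4.4e-07) and -3.14 ± 0.21 against roots not stored (SE, adjusted p = 1.7e-07). Per kb it was the most abundant pectate lyase in roots not stored, with 23.5% of the summed level. At 4 °C that place was taken by comp104748_c1 (At3g53190), with 16.1%.

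The 3 contigs of At5g55720 were separated by storage in different ways. comp24284_c1 had 2.12, 3.21 and 2.77 CPM at 4 °C, against 5.57, 4.85 and 6.15 CPM at 14 °C and 0.565, 0.6 and 0.89 CPM in roots not stored. It rose in both stores and most at 14 °C, with log2 fold changes of 1.98 ± 0.24 for 4 °C and 3.01 ± 0.25 for 14 °C against roots not stored (SE, adjusted p = 2.5e-05 and 6.2e-06). comp81952_c1 had 8.86, 8.69 and 7.68 CPM at 4 °C, against 8.58, 8.81 and 9.21 CPM at 14 °C and 8.51, 8.15 and 7.83 CPM in roots not stored. It was the most abundant pectate lyase per kb over the 9 libraries, and no comparison was called, the log2 fold change for 4 °C against 14 °C being -0.08 ± 0.13 (SE, adjusted p = 0.65). comp11055_c1 had 4.87, 4.77 and 5.13 CPM at 4 °C, against 8.5, 8.53 and 6.72 CPM at 14 °C and 5.16, 5.04 and 7.98 CPM in roots not stored, and was lower at 4 °C than at 14 °C, at -0.69 ± 0.19 on the log2 scale (SE, adjusted p = 0.011).

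At4g24780 (comp96646_c1) had 11.1, 11.7 and 9.56 CPM at 4 °C, against 8.33, 6.7 and 7.51 CPM at 14 °C and 7.65, 6.84 and 5.7 CPM in roots not stored. It was modestly higher at 4 °C, by 0.52 ± 0.16 against 14 °C on the log2 scale (SE, adjusted p = 0.016), not called without replicate 2 at 4 °C (adjusted p = 0.057) or replicate 2 at 14 °C (adjusted p = 0.076). PMR6 is a pectate lyase-like gene of Arabidopsis that powdery mildew needs for full growth. Its contig comp87917_c2, chosen after its values were seen, had 1.08, 1.46 and 1.15 CPM at 4 °C, against 0.127, 0.212 and 0.138 CPM at 14 °C and 0.118, 0.108 and 0.245 CPM in roots not stored, higher than at 14 °C by 2.94 ± 0.39 on the log2 scale (SE, adjusted p = 6.1e-05). Of the 11 pectate lyases that were higher at 4 °C than at 14 °C, 8 had their highest value in replicate 2 at 4 °C, and 10 were called higher without that library. The other 13 pectate lyases were contigs of 245 to 738 bases at 2.2 CPM or less in every library, and 4 of them had too few counts to be tested. Of the 9 tested, the 4 called higher at 4 °C than at 14 °C were the 4 that had passed the filter through 4 °C alone, among them comp83377_c1 (At4g13710) with 1.05, 2.2 and 0.99 CPM at 4 °C, against 0, 0.0335 and 0 CPM at 14 °C.

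**Figure D4:**
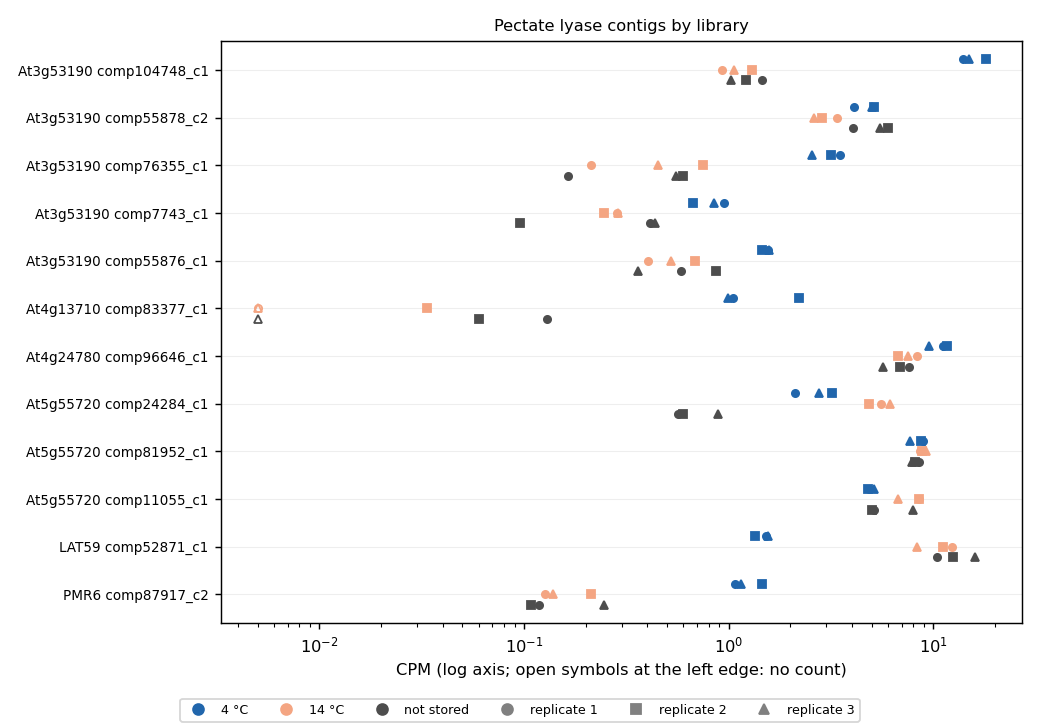
CPM of 12 pectate lyase contigs in each library, on a log axis, with 4 °C in blue, 14 °C in orange and roots not stored in grey, and open symbols at the left edge for libraries with no count. The At3g53190 contig comp104748_c1 is high at 4 °C alone, LAT59 is low at 4 °C alone, and comp81952_c1 is level throughout.

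Polygalacturonases changed in both directions at 4 °C, with a near-equal summed level in both stores. For 4 °C against 14 °C 13 of 26 tested contigs were higher, 9 lower and 4 not called, and the median log2 fold change was 0.51, where 23.8% of all contigs were higher and 24% lower. Against roots not stored, 13 were higher and 9 lower at 4 °C, with a median of 0.20, where 26.0% of all contigs were higher and 26.6% lower. At 14 °C 3 were higher, 3 lower and 20 not called against roots not stored, with a median of -0.23. These 11.5% in each direction lay under the 15.1% higher and 15.7% lower of all contigs, and under library totals alone 5 were higher and 1 lower. Of the 26 tested contigs, 9 had passed the filter by their level at 4 °C alone, and all 9 were called higher at 4 °C in both comparisons, so that the 13 and the positive medians include contigs tested because they were high there. Of the other 17, 4 were higher and 9 lower at 4 °C in each comparison. Among the 9 that averaged at least 2 CPM, 2 were higher and 4 lower for 4 °C against 14 °C. The 4 lower had a mean of 0.646 CPM or less at 4 °C, so they reached that average through the other treatments. The Gene Ontology term polygalacturonase activity was carried by 22 of the tested contigs. Of these, 9 were higher and 9 lower (40.9% each) in that comparison, with a median of 0.08. Some of those 9 higher had also passed the filter by their level at 4 °C alone. All 30 contigs summed to 41.4 ± 1.51 CPM per kb at 4 °C, against 41 ± 2.01 at 14 °C and 50.6 ± 7.35 in roots not stored.

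The symbol At1g48100, an Arabidopsis polygalacturonase locus, was carried by 10 contigs, of which 6 were tested, 3 rising and 3 falling at 4 °C. The filter bears on this split, because comp99223_c3, which rose, had passed it by its level at 4 °C alone. Of the contigs not tested, comp37575_c1, comp39498_c1 and comp59535_c1 had no count at 4 °C, against 44, 23 and 36 counts over the roots not stored. The last, comp46997_c1, had 20 counts at 4 °C and 21 in roots not stored. comp85562_c1 had 3.86, 5.02 and 7.31 CPM at 4 °C, against 0.297, 0.324 and 0.138 CPM at 14 °C and 0.0471, 0.036 and 0.0516 CPM in roots not stored. comp77291_c3 had 4.53, 3.19 and 5 CPM at 4 °C, against 0.318, 0.447 and 0.33 CPM at 14 °C and 0.0471, 0 and 0.0258 CPM in roots not stored. Both were highest at 4 °C, intermediate at 14 °C and near the counting floor in roots not stored, with no overlap. For comp85562_c1 the log2 fold change was 4.39 ± 0.34 for 4 °C against 14 °C and 2.48 ± 0.47 for 14 °C against roots not stored (SE, adjusted p = 7.6e-07 and 0.002). comp77291_c3 was 15-fold higher at 14 °C than in roots not stored, with a 95% counting interval of 6.65 to 42. The fitted log2 value of that rise was 4.68 without replicate 1 and 3.22 without replicate 2 of the roots not stored, both still called. Its log2 fold change for 4 °C against 14 °C was 3.53 ± 0.36 (SE, adjusted p = 6.2e-06).

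Other contigs of the same symbol were lost at 4 °C. comp11160_c1 had 0.114, 0.112 and 0.0888 CPM at 4 °C, against 3.83, 3.16 and 4.82 CPM at 14 °C and 5.38, 4.24 and 5.64 CPM in roots not stored. comp53775_c1 had 0.241, 0.212 and 0.406 CPM at 4 °C, against 7.1, 3.75 and 8.97 CPM at 14 °C and 7.58, 10.6 and 9.65 CPM in roots not stored. Both were present at similar, overlapping levels at 14 °C and in roots not stored and were low in all libraries at 4 °C. Their log2 fold changes for 4 °C against 14 °C were -5.21 ± 0.28 for comp11160_c1 (SE, adjusted p = 3e-08) and -4.52 ± 0.37 for comp53775_c1 (SE, adjusted p = 1.4e-06). Neither was called for 14 °C against roots not stored.

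A second symbol, the grapevine locus name GSVIVT00026920001, showed the same kind of exchange. comp48757_c1 had 0.823, 0.535 and 0.546 CPM at 4 °C, against 17.4, 19.8 and 13.8 CPM at 14 °C and 18.9, 26.4 and 14.2 CPM in roots not stored. comp77384_c1 had 13.1, 16 and 11.4 CPM at 4 °C, against 3.52, 3.61 and 3.56 CPM at 14 °C and 4.61, 5.31 and 5.54 CPM in roots not stored. The first was low and the second high in every library at 4 °C, with log2 fold changes against 14 °C of -4.75 ± 0.28 for comp48757_c1 (SE, adjusted p = 9.1e-08) and 1.92 ± 0.16 for comp77384_c1 (SE, adjusted p = 1.4e-06). comp48757_c1 was the most abundant polygalacturonase per kb at 14 °C and in roots not stored, with 26.2% and 24.7% of the summed level, and comp77384_c1 the most abundant at 4 °C, with 18.4%.

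The remaining contigs of this symbol were less abundant. comp69799_c1 had 0.554, 0.623 and 0.761 CPM at 4 °C, against 1.98, 1.72 and 1.84 CPM at 14 °C and 3.36, 4.61 and 4.32 CPM in roots not stored, lower in each store with no overlap. comp20832_c3 had 4.22, 3.9 and 4.62 CPM at 4 °C, against 3.18, 3.29 and 2.45 CPM at 14 °C and 5.04, 5.52 and 4.23 CPM in roots not stored. It was higher at 4 °C than at 14 °C by 0.51 ± 0.18 on the log2 scale (SE, adjusted p = 0.034), not called (adjusted p of 0.057 to 0.12) without replicate 1 or 3 of either store, or under library totals alone (adjusted p = 0.13).

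Of the 4 contigs of At1g80170, another Arabidopsis locus name, none was called between the stores. comp56114_c3 had 6.97, 6.19 and 6.42 CPM at 4 °C, against 7.02, 5.83 and 5.85 CPM at 14 °C and 6.89, 7.49 and 7.7 CPM in roots not stored, and comp103888_c1 had 9.13, 10.5 and 10.6 CPM at 4 °C, against 10.8, 9.08 and 8.57 CPM at 14 °C and 5.99, 8.82 and 6.66 CPM in roots not stored. The libraries of both stores overlapped in each, with log2 fold changes between the stores of 0.07 ± 0.14 and 0.09 ± 0.17 (SE, adjusted p = 0.73 and 0.68). comp103888_c1 was called higher at 4 °C than in roots not stored, by 0.50 ± 0.17 on the log2 scale (SE, adjusted p = 0.026). That call was lost when replicate 2 or 3 at 4 °C, or replicate 1 or 3 of the roots not stored, was left out, with adjusted p of 0.07 to 0.14, and when only these 2 treatments were fitted (adjusted p = 0.063).

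ADPG1 is the Arabidopsis polygalacturonase of pod shatter and anther opening. Its contig comp9261_c1 had 0.0568, 0.137 and 0.0254 CPM at 4 °C, against 1.46, 1.43 and 0.702 CPM at 14 °C and 0.553, 0.6 and 0.671 CPM in roots not stored, and was lower at 4 °C than at 14 °C, at -4.00 ± 0.50 on the log2 scale (SE, adjusted p = 3.8e-05). The 3 contigs of At2g43860 differed, with comp82328_c1 at 0.951, 0.934 and 0.52 CPM at 4 °C, no read at 14 °C and 1 read in roots not stored, and comp56615_c1 absent at 4 °C and at 0.318, 0.313 and 0.165 CPM at 14 °C. comp82328_c1 was at least 22.6-fold higher and comp56615_c1 at least 6.75-fold lower at 4 °C than at 14 °C. ADPG1 and At2g43860 were chosen after their values were seen, and comp82328_c1 had passed the filter by its level at 4 °C alone. The 7 called-higher contigs without a symbol were rare, at 1.95 CPM or less in every library.

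**Figure D5:**
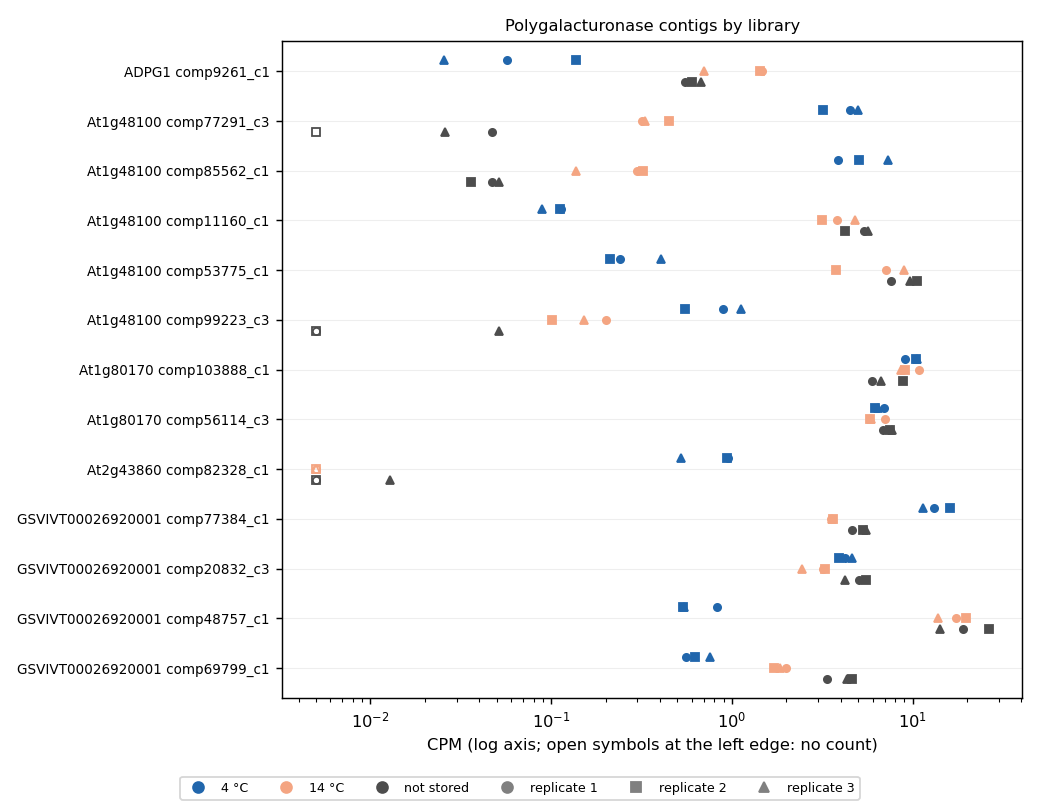
CPM of 13 polygalacturonase contigs in each library, on a log axis, with 4 °C in blue, 14 °C in orange and roots not stored in grey, and open symbols at the left edge for libraries with no count. Contigs of At1g48100 and of GSVIVT00026920001 lie on opposite sides at 4 °C, while the At1g80170 contigs overlap.

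The other lists of the pectin pathway, matched by product names and symbols, moved in different directions. For 4 °C against 14 °C their counts stand against 23.8% higher and 24% lower among all contigs. Against roots not stored, 26.0% of all contigs were higher and 26.6% lower at 4 °C, and 15.1% higher and 15.7% lower at 14 °C. UDP-glucuronate 4-epimerases, which make the galacturonic acid precursor of pectin, were the contigs that matched the pectin synthesis list, and 2 of 15 tested were higher and 10 lower for 4 °C against 14 °C. Against roots not stored, 3 were higher and 10 lower at 4 °C, and 1 higher and 11 lower at 14 °C. Contigs with symbols of galacturonosyltransferases, which build the pectin backbone, numbered 83 tested, 38 higher and 13 lower for 4 °C against 14 °C. Against roots not stored, 24 of them were higher and 31 lower at 4 °C, and 10 higher and 36 lower at 14 °C. The shares higher there, 28.9% and 12.0%, were near those of all contigs. UDP-glucose dehydrogenase symbols were higher in 6 and lower in 1 of 10 between the stores, and higher in 3 and lower in 6 at 4 °C against roots not stored. Beta-galactosidases, which trim pectin side chains and were the contigs that matched that list, were higher in 15 and lower in 9 of 44 between the stores, and higher in 21 and lower in 8 at 4 °C against roots not stored.

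Other wall-loosening proteins, matched as expansin, xyloglucan or endoglucanase, were higher in 48 and lower in 20 of 107 for 4 °C against 14 °C. Against roots not stored they were higher in 15 and lower in 72 at 4 °C, where 26.0% of all contigs were higher and 26.6% lower, and higher in 14 and lower in 71 at 14 °C, where 15.1% were higher and 15.7% lower. Expansin symbols were higher in 3 and lower in 10 of 20 between the stores, and lower in 12 and higher in 0 at 4 °C against roots not stored. Symbols of wall-associated kinases, receptor kinases that bind pectin and its fragments, were higher in 18 and lower in 1 of 31 between the stores and higher in 16 and lower in 4 at 4 °C against roots not stored. They summed to 152 to 205 CPM at 4 °C, against 67 to 75.1 CPM at 14 °C and 71.5 to 78.9 CPM in roots not stored. The symbol lists were added after results of these data had been seen. Among the marker lists, between the stores, histones were higher in 89 and lower in 6 of 103, xylem markers higher in 19 and lower in 2 of 30, green tissue markers higher in 7 and lower in 48 of 101, and all 9 sporamins lower.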

How the data were processed

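RNA from 9 pools of roots was sequenced, 3 for each treatment. The extraction text of the labels names retinas, although tissue and source are given as root. Per the file headers, the authors gave estimated counts, TPM and RPKM of each contig in each library, beside its length. Neither the tool behind the estimated counts nor the strand of the libraries is given in the sources used here. Tools listed in the submitters' processing notes, without roles, are StringTie 1.3.4d, HISAT2 2.0.4, cutadapt 1.9, edgeR and DESeq2. The authors' TPM and RPKM were not used for tests.

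Estimated counts were rounded and tested in edgeR 4.0.16 (TMM, filterByExpr, robust quasi-likelihood F test, 9 libraries in 3 groups, Benjamini-Hochberg adjustment over 94802 contigs). The filter needed about 0.126 CPM in 3 libraries. The SE is the log2 fold change divided by the square root of F. CPM used TMM-scaled library sizes. Where a group had no count, a fold is a bound from 3 counts in each library. Where it had 1 to 9, the ratio has an exact binomial 95% interval. Both cover counting error only, since the table counts reads and not molecules. No label says that the pools came from separate harvests, so p-values measure the spread between pools, which may be technical.

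Named contigs were, per enzyme and comparison, up to 3 largest rises and falls among called contigs whose higher group averaged 2 CPM or more with no library overlapping the other group, plus the 3 most abundant per kb, all PECS-2.1 contigs and At3g53190, 33 members in all. Members and lists were chosen with earlier results of these data known. Lists for pectin fragment sensing and pollen matched 0 descriptions. Alternatives were scaling by library totals alone or by the median of ratios, a filter of 1 CPM in 3 libraries, no filter, fits of only the 2 groups compared, the replicate number as a block, DESeq2 1.42.0, limma-voom 3.58.1, a change of at least 2-fold, and each library left out. On simulated counts for 4 °C against 14 °C (86010 contigs), the share of changed contigs recovered by edgeR was 4.92% at 1.5-fold (61 contigs), 32.8% at 2-fold (58) and 96.3% at 4-fold (81), with 10 false calls. Only these contigs were changed, all of them at 1 CPM or more in roots not stored. In the data 47.8% of all contigs were called in that comparison, and many members lay under 1 CPM. The simulated shares therefore do not give the share of true changes called in the data. No contig sequence was used here, and 0 of the members' symbols matched the reference gene table.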

Additional observations from a re-analysis of the deposited data

How the results depend on the processing

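No member named by the rule changed direction while called in any alternative, and 249 of 270 recomputed counts of calls stayed within 1.5 times the count reported. The stricter filter, which tested 51873 contigs, left 15 pectinesterases, 7 pectate lyases and 4 polygalacturonases higher and 4 polygalacturonases lower for 4 °C against 14 °C. Against roots not stored it left 11 pectinesterases, 7 pectate lyases and 4 polygalacturonases higher and 5 polygalacturonases lower at 4 °C, and 1 pectate lyase higher at 14 °C. With only the 2 groups in the fit, 5 pectate lyases were lower for 4 °C against 14 °C. For 14 °C against roots not stored, at least 2-fold falls were called in 14 pectinesterases, 0 pectate lyases and 1 polygalacturonase. There, library totals alone gave 7 pectate lyases and 5 polygalacturonases higher and 1 polygalacturonase lower, and DESeq2 gave 2 pectate lyases lower. In that comparison, leaving out each library gave 1 to 3 pectinesterases higher, 1 without replicate 2 at 14 °C or replicate 1 of the roots not stored, and 1 to 4 pectate lyases lower, 4 without replicate 1 and 2 without replicate 3 of the roots not stored. In the other comparisons, each left-out library gave 26 to 29 pectinesterases, 9 to 11 pectate lyases and 11 to 13 polygalacturonases higher for 4 °C against 14 °C.

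Apart from the stricter filter, which tests fewer contigs, the cause of these shifts was not tested. Of 1379 recomputed values of named contigs, 26 lost a call and 14 gained one. Same-numbered libraries were not treated as pairs. The correlations of their deviations were -0.524 to 0.315 and over 0.1 in 2 of 9 pairs, and those of differently numbered libraries reached 0.469. Deviations from the mean of 3 libraries are tied to each other, so these correlations cannot show whether the samples were paired. With the replicate number as a block, 26 pectinesterases, 11 pectate lyases and 12 polygalacturonases were higher for 4 °C against 14 °C, and the call of comp20832_c3 was lost at adjusted p = 0.052. Of the 115 members, 13 did not reach about 0.126 CPM in enough libraries and were not tested.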

Other observations

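Outside the product descriptions, 17 further contigs carried the Gene Ontology term pectinesterase activity, and some were far more abundant than most members. They were chosen after their values were seen, and whether they encode an enzyme or an inhibitor cannot be told apart from the table. comp48762_c2 had 569, 450 and 586 CPM at 4 °C, against 5.32, 6.44 and 6.62 CPM at 14 °C and 8.47, 8.55 and 7.6 CPM in roots not stored. Its libraries at 4 °C were all far above the other 6, with a log2 fold change of 6.45 ± 0.17 against 14 °C (SE, adjusted p = 5.7e-10). comp71130_c2 had 378, 254 and 371 CPM at 4 °C, against 7.01, 6.27 and 6.72 CPM at 14 °C and 26.7, 28.4 and 21.1 CPM in roots not stored. comp102728_c25 had 317, 224 and 321 CPM at 4 °C, against 3.26, 3.87 and 2.96 CPM at 14 °C and 6.35, 8.43 and 6.34 CPM in roots not stored. All of these were high at 4 °C alone, as were the shorter comp11842_c1 and comp1267_c2.

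comp43655_c1, the most abundant of the 17, had 1877, 1887 and 1577 CPM at 4 °C, against 513, 548 and 691 CPM at 14 °C and 1397, 1742 and 1390 CPM in roots not stored. It was low at 14 °C, while 4 °C and roots not stored overlapped. PME1 (comp48423_c7) had 0.937, 1.82 and 2.12 CPM at 4 °C, against 1.32, 1.34 and 1.22 CPM at 14 °C and 15.2, 26.1 and 17.2 CPM in roots not stored, lower in both stores. comp5352_c1 was highest at 14 °C, with 5.44, 4.02 and 4.7 CPM at 4 °C, against 15, 20.4 and 24.6 CPM at 14 °C and 9.14, 7.77 and 6 CPM in roots not stored. Of the 14 tested, 7 were higher and 2 lower for 4 °C against 14 °C, where 23.8% of all contigs were higher and 24% lower.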
